A study of Caenorhabditis elegans with 15 samples.

Results

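The vitellogenin genes vit-1, vit-2, vit-3, vit-4, vit-5 and vit-6 and the yolk receptor gene rme-2 were followed in 15 RNA-seq libraries of Caenorhabditis elegans. These 7 genes were taken by name from the 47111 genes of the deposited count table. Vitellogenins are the precursors of yolk. In C. elegans the intestine of the adult hermaphrodite makes them and secretes them into the body cavity. Growing oocytes take up the yolk lipoprotein particles by endocytosis through RME-2, a receptor of the low-density lipoprotein (LDL) receptor family. The vit genes are thus transcribed in the intestine and rme-2 in the germ line.

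The study compared messenger RNA from young adults of the wild type N2 with 4 alleles of puf-8, which encodes a Pumilio-family protein that binds the 3' UTRs of mRNAs in the germ line. The alleles were puf-8(ust221)(MUT-4A), puf-8(ust222)(MUT-4N), puf-8(ust223)(MUT-8G) and puf-8(ok302), and their codes were not interpreted here. Each genotype had 3 libraries, and all worms were synchronised as larvae and fed Escherichia coli OP50 at 20 °C. Whole worms were extracted, so fewer cells of a type and less RNA per cell cannot be told apart. Nothing in the labels ties the 3 replicates to different cultures. The p-values therefore rest on variation among libraries that may be partly technical.

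Library totals ran from 20969800 to 29352254 counts. Counts of puf-8 were 3 to 11 in the ok302 libraries and 2043 to 3899 in N2. They were 737 to 1781 in ust221, 1528 to 2300 in ust222 and 2970 to 5008 in ust223. Levels below are CPM, read counts scaled to a common library size after TMM (trimmed mean of M-values) normalisation. N2 replicate 1 and ust222 replicates 1 and 3 stood apart from the other 12 libraries. Mean log2 CPM of the sperm markers (13 rows of the count table) was -2.28 to -1.93 in these 3 and 1.31 to 3.37 in the rest. Markers of molting larvae also differed among libraries, with summed levels of 517 to 581 CPM in these 3, 53.1 to 251 in the N2, ust221, ust222 and ust223 libraries other than these 3, and 365 to 548 in ok302. The part of such differences in the results was not tested. Results that rest on the 3 sperm-poor libraries are given with them and again in the other 12 libraries, a choice made after seeing the data.

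All 5 genes vit-1 to vit-5 lie on chromosome X. In the coordinates of the deposited table vit-5 occupies X:3403471-3408603 on the plus strand, with vit-4 at X:3558839-3563974 and vit-3 at X:3567355-3572549 on the minus strand. On the plus strand, vit-2 lies at X:5101032-5106173 and vit-1 at X:7727889-7733168. The sixth gene, vit-6, lies on chromosome IV at 8261134-8266462, and rme-2 on the same chromosome at 5469961-5473174, both on the plus strand. The reference annotation (Ensembl release 115) gives 5 exons to vit-1, vit-2 and vit-6, 6 exons to vit-5, vit-4 and vit-3, and 6 or 7 to the transcripts of rme-2. The deposited domain names for the 6 vitellogenins are a lipoprotein amino-terminal region, a domain of unknown function (DUF1943) and a von Willebrand factor type D domain, and for rme-2 they are LDL receptor class A and class B repeats. Non-coding genes overlap vit-3, vit-4 and vit-6 on the opposite strand, 1 each, and all 3 had 0 counts. The genes vit-5, vit-4 and vit-3 are near-identical copies. How reads matching several copies were counted is not given in the sources used here, so the split of counts among them is uncertain. The same doubt holds for vit-1 and vit-2, whose counts may also share reads.

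The vitellogenins were among the most abundant transcripts of these worms. By mean CPM over the 15 libraries, vit-5, vit-2 and vit-6 ranked 1, 2 and 3 of 17217 genes tested, vit-3 ranked 5, vit-4 ranked 8, vit-1 ranked 60 and rme-2 ranked 254. The order of these first 3 differed among genotypes, since vit-5 had the lowest mean of them in N2 (4185 CPM, against 5364 for vit-2 and 4904 for vit-6) and in ust221 (8725, against 9969 and 9758). Per kilobase of gene length, the mean level was 1785 CPM per kb for vit-5, 1756 for vit-2 and 1655 for vit-6. On the same scale it was 1087 for vit-3, 846 for vit-4 and 456 for vit-1, and rme-2 stood at 207. Across the 15 libraries the highest CPM of a gene was 9.27 times its lowest for vit-5, 7.76 times for vit-1 and 5.01 to 6.17 times for the other 4 vitellogenins. For rme-2 this quotient was 4.16.

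**Figure D1:**
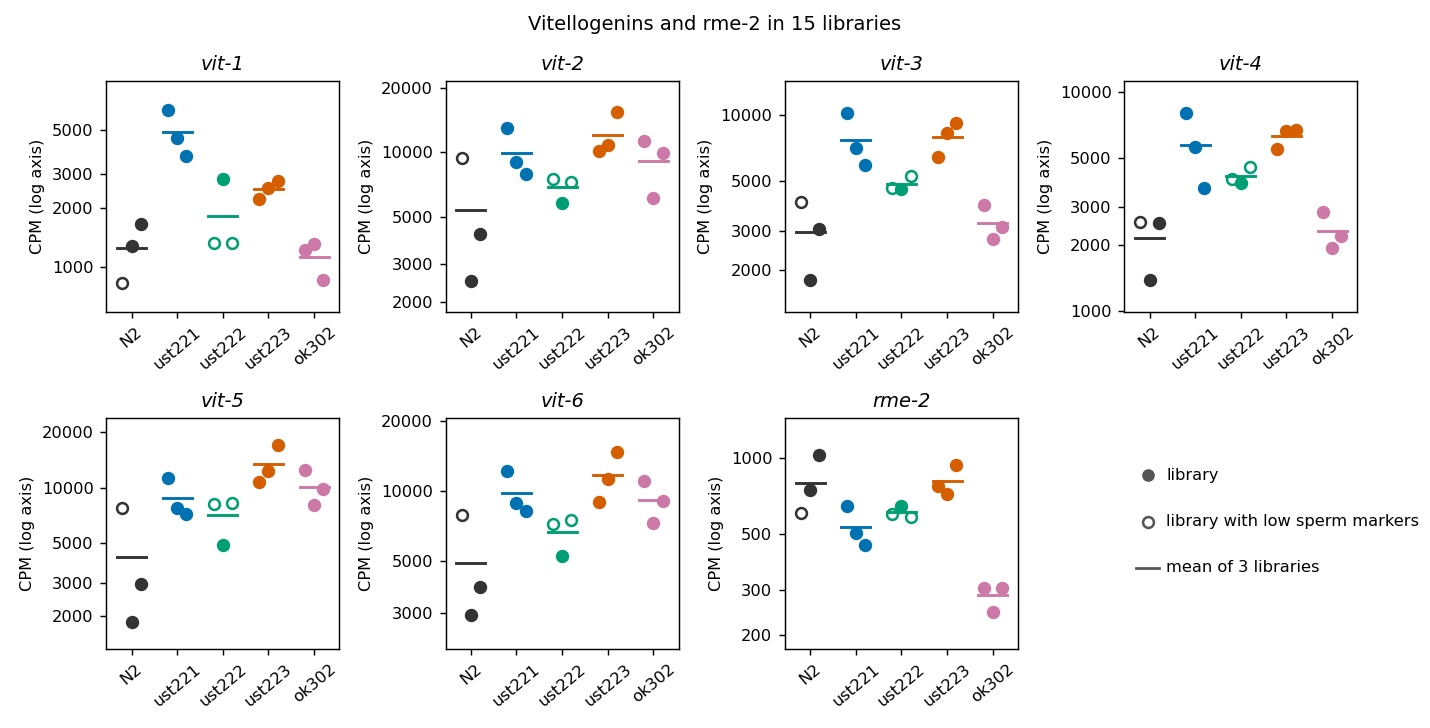
Levels of the 6 vitellogenins and rme-2 in CPM, on log axes, by genotype; points are libraries, open points the 3 libraries with low sperm markers, and lines the means of 3 libraries. All 3 ok302 libraries sit between 247 and 308 CPM for rme-2, under every other library, and N2 replicate 1 (open) is the highest N2 library for vit-2, vit-3, vit-4, vit-5 and vit-6 but the lowest for vit-1 and rme-2.

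Differences among the 5 genotypes were tested with edgeR's quasi-likelihood test on counts, 1 fit of all 15 libraries, with Benjamini-Hochberg adjustment over the 17217 genes. A gene is said to be called at an adjusted p under 0.05, and a log2 fold change is given ± its standard error with n = 3 libraries per genotype. All 7 members passed the filter on low counts. In the test for any difference among genotypes, 4 of 7 members were called (vit-1, vit-3, vit-4 and rme-2), where 24.3% of all genes were. In the 12 libraries the count was 7 of 7, where 60.8% of all genes were called. The 4 comparisons with N2 share its 3 libraries, so they are not independent of each other.

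Among the intestinal genes, vit-1 was highest in ust221. Its levels were 823, 1279 and 1661 CPM in N2 replicates 1, 2 and 3, and 6382, 4572 and 3693 CPM in ust221. The ust222 libraries held 1327, 2833 and 1321 CPM and the ust223 libraries 2239, 2531 and 2765. In ok302 the values were 1227, 1305 and 855 CPM. Every ust221 library exceeded all 12 libraries of the other genotypes, and the N2 and ok302 ranges overlapped. Against N2, vit-1 rose by 1.96 ± 0.35 on the log2 scale in ust221, a 3.89-fold difference (edgeR, adjusted p = 0.0202). It was not called in ust222 (0.54 ± 0.34, edgeR adjusted p = 0.676), in ust223 (1.00 ± 0.34, 0.249) or in ok302 (-0.15 ± 0.34, 0.764). Leaving out N2 replicate 2 ended the ust221 call (1.98, edgeR adjusted p = 0.0538) and leaving out any 1 of the other 14 libraries did not. Since vit-1 and vit-2 may share reads, they were also summed into 1 row. That row was at 1.17 ± 0.35 in ust221 against N2 (edgeR, adjusted p = 0.0905), not called.

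The neighbouring genes vit-3 and vit-4 were higher than in N2 in both ust221 and ust223. For vit-3, N2 held 4050.5, 1806 and 3064 CPM, ust221 held 10131, 7053 and 5944 CPM, and ust222 held 4693, 4632 and 5289 CPM. Its levels in ust223 were 6426, 8266 and 9162 CPM, and in ok302 they were 3914, 2751 and 3114 CPM. All 9 libraries of the ust alleles lay above all 6 libraries of N2 and ok302. The fitted difference from N2 was 1.37 ± 0.30 in ust221 (2.59-fold; edgeR, adjusted p = 0.038) and 1.42 ± 0.30 in ust223 (2.67-fold; 0.0332). In ust222 it was 0.71 ± 0.30 (edgeR, adjusted p = 0.612), and in ok302 it was 0.13 ± 0.29 (0.762), neither of them called.

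For vit-4 the N2 libraries held 2559, 1387 and 2527 CPM. Levels were 8012, 5580.0 and 3636 CPM in ust221, 4015, 3844 and 4536 CPM in ust222, and 5467, 6604 and 6734 CPM in ust223. In ok302 they were 2835, 1947 and 2208 CPM. As with vit-3, no ust library lay within the range of N2 or ok302. The gene rose by 1.41 ± 0.30 in ust221 (edgeR, adjusted p = 0.037) and by 1.54 ± 0.30 in ust223 (0.0232). It was at 0.94 ± 0.30 in ust222 (edgeR, adjusted p = 0.508) and 0.11 ± 0.30 in ok302 (0.804), neither called.

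The calls of vit-3 and vit-4 stood close to the threshold. In ust221 the call of vit-3 held without N2 replicate 1, ust221 replicate 3 or ust222 replicate 2 and was lost without any 1 of the other 12 libraries (adjusted p up to 0.116). The ust221 call of vit-4 was lost in 10 of 15 such fits (up to 0.101). In ust223 the losses were 11 of 15 for vit-3 (up to 0.134) and 8 of 15 for vit-4 (up to 0.0945), including each fit without N2 replicate 2 or 3 or any ust223 library. Without N2 replicate 2 the log2 fold changes were 1.12 and 1.18 in ust221 and 1.16 and 1.30 in ust223, for vit-3 and vit-4. Without ust221 replicate 1 they were 1.19 and 1.17 in ust221. Summed into 1 row, vit-3 and vit-4 gave 1.39 ± 0.31 in ust221 (edgeR, adjusted p = 0.0387) and 1.47 ± 0.31 in ust223 (0.0306). With vit-5 added to the sum, the values were 1.25 ± 0.36 (0.0827) and 1.57 ± 0.37 (0.0565), not called.

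The remaining 3 vitellogenins, vit-2, vit-5 and vit-6, were high in 1 N2 library. For vit-2 the N2 values were 9427, 2501 and 4164 CPM, and replicate 1 lay above 2 of the 3 ust221 libraries. The other vit-2 levels were 13039.9, 8983 and 7883 CPM in ust221, 7492, 5819.6 and 7278 CPM in ust222, 10113, 10803 and 15438.5 CPM in ust223, and 11273, 6141 and 9963 CPM in ok302. Only the ust223 range was clear of N2. None of the 4 alleles was called for vit-2, with log2 differences from 0.36 ± 0.41 in ust222 to 1.18 ± 0.42 in ust223 (edgeR, adjusted p 0.195 to 0.808).

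For vit-5 the N2 libraries held 7733, 1851 and 2971 CPM, so that replicate 1 was 4.18 times replicate 2. The levels in ust221 were 11243, 7762 and 7169 CPM and in ust222 8082, 4877 and 8238 CPM. In ust223 they were 10739.6, 12246 and 17150.0 CPM, the last being the highest level of any member in any library, and in ok302 12506, 8045 and 9772 CPM. The ust223 and ok302 ranges lay above that of N2. Log2 differences were 1.68 ± 0.45 in ust223 (edgeR, adjusted p = 0.101), 1.27 ± 0.44 in ok302 (0.0528), 1.06 ± 0.44 in ust221 (0.193) and 0.76 ± 0.44 in ust222 (0.655), none of them called.

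The autosomal vit-6, whose product is a precursor cut into smaller yolk proteins, resembled vit-2 and vit-5. It stood at 7912, 2943 and 3858 CPM in N2 and at 12189, 8858 and 8228 CPM in ust221. In ust222 the values were 7188, 5271 and 7500.1 CPM, in ust223 9011, 11263 and 14744 CPM, and in ok302 11023, 7311 and 9033 CPM. The ust221 and ust223 libraries lay above all of N2, while 1 ok302 library and all ust222 libraries lay below N2 replicate 1. The differences were 0.99 ± 0.35 in ust221 (edgeR, adjusted p = 0.136), 1.25 ± 0.35 in ust223 (0.127), 0.90 ± 0.35 in ok302 (0.0805) and 0.44 ± 0.35 in ust222 (0.724), again not called.

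Counted together against N2, 3 of 6 vitellogenins were called higher in ust221 (1.03% of all genes were), 0 in ust222 (0.00581%), 2 in ust223 (1.13%) and 0 in ok302 (8.45%). At an unadjusted p under 0.05 the counts were 6, 2, 6 and 2, where 21.2, 7.99, 9.79 and 37.1% of all genes passed in either direction. DESeq2 called 3, 0, 5 and 1 of the 6 higher, where it called 6.13, 0.273, 2.85 and 13.1% of all genes higher. Median log2 fold changes of the 6 genes were 1.22 in ust221, 0.63 in ust222, 1.34 in ust223 and 0.45 in ok302, beside medians of -0.09, -0.17, -0.08 and 0.10 over all genes. Ranges of 3 libraries were higher than those of N2 and did not overlap them for 4 of 6 vitellogenins in ust221, where 11.2% of all genes had this, for 2 in ust222 (2.31%), 6 in ust223 (8.68%) and 1 in ok302 (25.0%). No vitellogenin was called lower, or lay below N2 in all libraries, in any allele.

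With the 3 sperm-poor libraries left out, N2 was represented by replicates 2 and 3 and ust222 by replicate 2. All 6 vitellogenins were then called higher than N2 in ust221 (6.99% of all genes were), with log2 fold changes from 1.59 for vit-6 to 1.92 for vit-5. In ust223, 5 of 6 were called higher (7.84% of genes), led by vit-5 at 2.55 ± 0.35 (5.88-fold; edgeR, adjusted p = 0.000709). The exception was vit-1 (0.86 ± 0.27, adjusted p = 0.0548). In ok302, vit-2 (1.46 ± 0.36, edgeR adjusted p = 0.00505), vit-5 (2.07 ± 0.34, 0.000415) and vit-6 (1.43 ± 0.31, 0.00224) were called higher, where 26.2% of genes were. There vit-1, vit-3 and vit-4 were at -0.38, 0.43 and 0.26 and were not called. The lone ust222 library, taken to vary like the others, gave 0 calls (0.0109% of genes) and log2 differences of 0.75 to 1.14, with 4 of the 6 under an unadjusted p of 0.05. Leaving out only N2 replicate 1 from the 15 libraries gave calls for vit-2, vit-5 and vit-6 in ust221, ust223 and ok302, and for vit-3, vit-4, vit-5 and vit-6 in ust222 (1.27, 1.35, 1.84 and 1.25; edgeR, adjusted p = 0.0433, 0.0457, 0.0365 and 0.0479). In that fit 3.71% of all genes were called higher in ust221, 4.2% in ust222, 2.28% in ust223 and 16.4% in ok302. In ok302, vit-5 was also called without ust222 replicate 2 (1.26, adjusted p = 0.041).

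**Figure D2:**
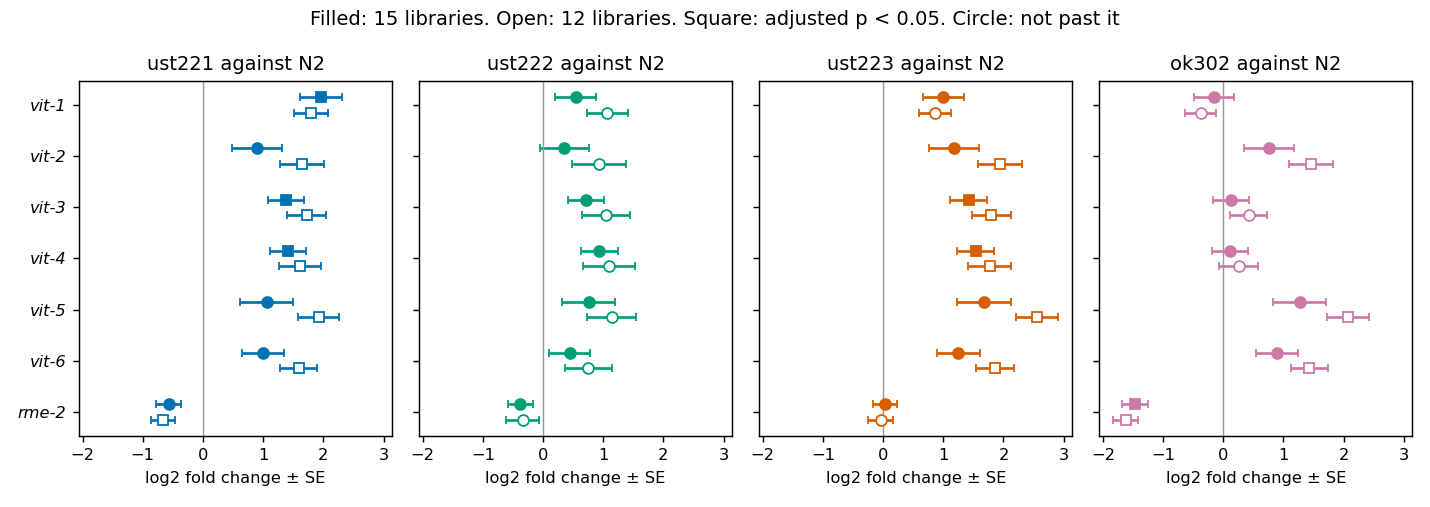
Log2 fold change against N2, with its standard error, of the 7 genes in each puf-8 allele; filled symbols are from 15 libraries, open ones from the 12 libraries without low sperm markers, and squares passed an adjusted p under 0.05. For rme-2 only ok302 is called in the 15 libraries (-1.46), and vit-5 moves from 1.27 to 2.07 in ok302 when the 3 libraries are left out.

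Expressed as a share of all counts, the 6 vitellogenins together took up 3.44, 1.18 and 1.61% of the N2 libraries. Their share was 3.27 to 4.19% in ust221, 2.65 to 3.81% in ust222, 4.72 to 6.87% in ust223 and 3.26 to 4.79% in ok302. Every ust223 library but the first was above all libraries of the other genotypes, and N2 replicates 2 and 3 were the lowest 2 of the 15. Markers of the intestine, the tissue that makes yolk, were read beside these values. Of 12 intestinal genes found and tested, 2 were called higher in ust221, 0 in ust222, 3 in ust223 and 3 in ok302, where 1 was called lower. Of all genes, 1.03, 0.00581, 1.13 and 8.45% were called higher in these 4 alleles, and 15.4% were called lower in ok302. The list medians were 0.57, -0.15, -0.26 and 0.33 on the log2 scale. Over the 12 libraries the counts were 4 higher in ust221, 3 higher and 1 lower in ust223, and 4 higher and 1 lower in ok302. Of all genes, 6.99% were called higher in ust221 there, and 7.84% higher in ust223, with 609 of 18343 lower. In ok302 the shares of all genes were 26.2% higher and 23.6% lower. Summed levels of the 12 intestinal genes were 4533 to 7401 CPM in N2, 6249 to 11849 in ust221, 4818 to 6258 in ust222, 4740 to 7337 in ust223 and 5716 to 14587 in ok302, and none of the 12 was at 0 in any library. The log2 ratio of the summed vitellogenin CPM to this intestinal sum was 1.38 to 2.13 in N2 and 2.02 to 2.55 in ust221. It was 2.12 to 2.77 in ust222, 2.82 to 3.80 in ust223 and 1.26 to 2.27 in ok302. On this scale only the ust223 range was clear of N2. The part of intestinal RNA content in the vitellogenin differences was not tested. Examples chosen after their values were seen are cpr-6, a gut cathepsin (1.19 ± 0.24 in ust221 and 1.63 ± 0.24 in ust223), and ges-1, a gut esterase (1.10 ± 0.24 in ust223 and 0.92 ± 0.23 in ok302), at edgeR adjusted p of 0.00431 to 0.0365. The marker called lower in ok302 was aqp-4, an aquaporin (-0.95 ± 0.32, edgeR adjusted p = 0.0452).

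The make-up of the vitellogenin counts also differed among libraries. In N2 replicates 2 and 3, vit-1 supplied 10.9 and 9.1% of them, and in ust221 10.1 to 10.7%. The share of vit-1 was 2.53 to 4.05% in the 3 sperm-poor libraries, 4.19 to 5.09% in ust223 and 2.45 to 4.75% in ok302, while ust222 replicate 2 held 10.4%. The vit-1 share thus separated the N2 and ust222 libraries by sperm markers rather than by genotype. In ok302, vit-5 supplied 28.0 to 29.3% and the pair vit-3 and vit-4 supplied 8.91 to 10.0% and 6.32 to 7.08%. In the other 12 libraries vit-5 supplied 15.7 to 26.0%, vit-3 12.5 to 17.0% and vit-4 7.87 to 14.1%, and none of these 3 ranges overlapped that of ok302.

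**Figure D3:**
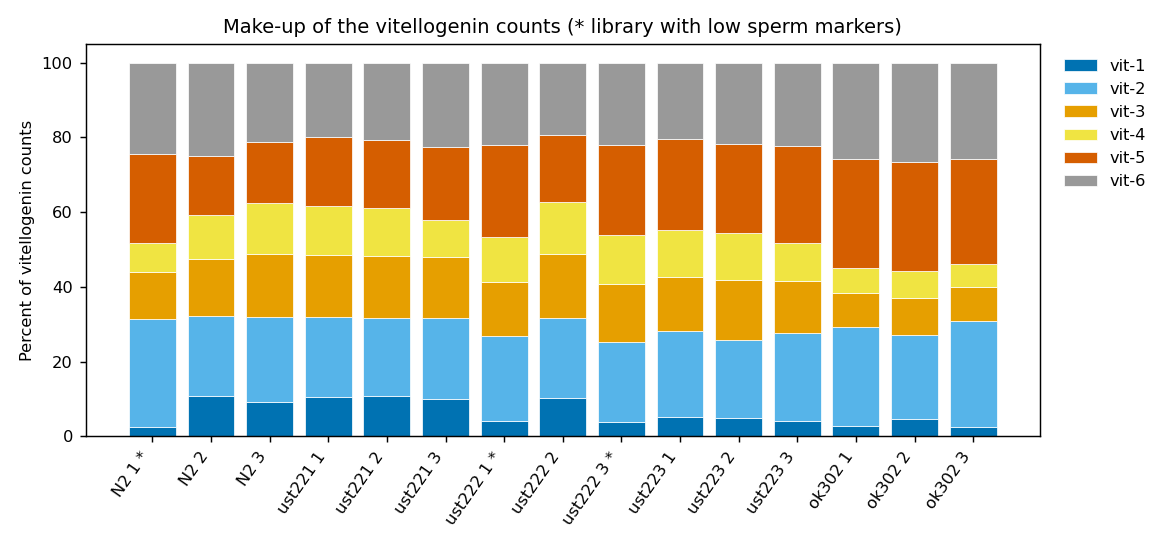
Percent of the summed vitellogenin counts contributed by each of the 6 genes in each of the 15 libraries, with an asterisk on the 3 libraries with low sperm markers. The vit-1 segment is 9.1 to 10.9% in N2 replicates 2 and 3, the 3 ust221 libraries and ust222 replicate 2, and at most 5.09% in the other 9 libraries, and the vit-5 segment is widest in ok302.

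Some pairs within the family had closer profiles than others. Centred on each gene's mean, the log2 CPM profiles of vit-2 and vit-6 differed by a root-mean-square of 0.136 over the 15 libraries, vit-3 and vit-4 by 0.147, vit-2 and vit-5 by 0.248 and vit-5 and vit-6 by 0.248. The distance of vit-1 was 0.581 from vit-3 and 1.04 from vit-5. The log2 ratio of vit-4 to vit-3 counts stayed between -0.71 and -0.22 in all 15 libraries, while that of vit-3 to vit-5 ranged from -1.68 to 0.04. The latter was lowest in ok302, at -1.68 to -1.55, and was -0.93 to -0.64 in the sperm-poor libraries. The vit-1 to vit-2 ratio ranged from -3.54 in ok302 replicate 3 to -0.97 in N2 replicate 2. Since vit-5, vit-4 and vit-3 may share reads, their likeness to each other is uncertain. The ratio of vit-1 to vit-2 and the share of vit-1 carry the same doubt.

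The receptor gene rme-2 was lowest in ok302. Its levels were 604, 744 and 1028 CPM in N2, and 307, 247 and 308 CPM in ok302. The ust221 libraries held 648, 503 and 452 CPM, ust222 held 601, 643 and 582 CPM, and ust223 held 772, 719 and 939 CPM. No ok302 library reached the level of any of the other 12 libraries, whereas ust221, ust222 and ust223 all overlapped N2. Against N2, rme-2 fell in ok302 by 1.46 ± 0.21 on the log2 scale, to 0.363 of the N2 level (edgeR, adjusted p = 0.000581). Of all genes, 15.4% were called lower in ok302, and for 18.6% the ok302 range lay below that of N2. This call held in all fits that left out 1 library, with log2 fold changes of -1.62 to -1.25. Differences in ust221 (-0.57 ± 0.21, edgeR adjusted p = 0.145), ust222 (-0.38 ± 0.21, 0.639) and ust223 (0.03 ± 0.21, 1.0) were not called.

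In the 12 libraries rme-2 fell in ok302 by 1.62 ± 0.20 (edgeR, adjusted p = 7.1e-05), where 23.6% of genes were called lower. It also passed the threshold in ust221 (-0.66 ± 0.20, adjusted p = 0.0476), where 6.65% of genes were called lower, and without N2 replicate 1 alone (-0.66, 0.0466). In ust223 it was at -0.043 ± 0.21 (edgeR, adjusted p = 0.918), the opposite sign to that of the 15 libraries.

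Markers of oocytes, the cells that use the receptor, were read beside rme-2. Of 16 oocyte markers, 14 were called lower in ok302, where 15.4% of all genes were, and none higher, with a median of -1.45. In ust221, 6 were called lower, where 0.761% of all genes were, with a median of -0.69. With 12 libraries, 14 were called lower in ok302 (23.6% of all genes were), and in ust221 10 lower (6.65%) and 1 higher (6.99%). Their summed levels were 11788 to 16026 CPM in N2, 8251 to 11461 in ust221, 9813 to 10566 in ust222, 13001 to 14995 in ust223 and 5203 to 7012 in ok302, and none of the 16 was at 0. Counted as a percentage of that sum, rme-2 was 5.12 to 6.41% in N2, 5.37 to 5.65% in ust221, 5.86 to 6.09% in ust222, 5.53 to 6.26% in ust223 and 4.37 to 5.04% in ok302. The 3 ok302 libraries were the lowest on this scale too. The ust221 range lay below that of ust222, and the ranges of the other pairs among N2 and the ust alleles overlapped. The part of oocyte number or stage in the fall of rme-2 was not tested.

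Yolk and receptor transcripts were also set against each other as a ratio within each library, which does not depend on scaling. Counts of the 6 vitellogenins per rme-2 count were 53.8, 15.8 and 17.7 in N2, the first being the sperm-poor library. They were 94.2, 85.1 and 80.9 in ust221, 54.5, 42.4 and 58.7 in ust222, 57.0, 71.9 and 70.3 in ust223, and 139.5, 111 and 113.5 in ok302. All libraries of ust221, ust223 and ok302 exceeded all of N2, and 1 ust222 library lay below N2 replicate 1. Mean log2 ratios exceeded that of N2 (4.63 ± 0.98 SD, n = 3) by 1.81 in ust221, 1.06 in ust222, 1.42 in ust223 and 2.29 in ok302. The two-sided exact permutation p was 0.1, 0.2, 0.1 and 0.1, and 0.1 is the smallest that 3 against 3 libraries can give. Without N2 replicate 1 the differences were 2.37, 1.62, 1.98 and 2.85. Either part can move such a ratio. Against N2, rme-2 was at -0.57 in ust221, -0.38 in ust222, 0.03 in ust223 and -1.46 in ok302 on the log2 scale. The median of the 6 vitellogenins was 1.22, 0.63, 1.34 and 0.45 in these alleles.

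**Figure D4:**
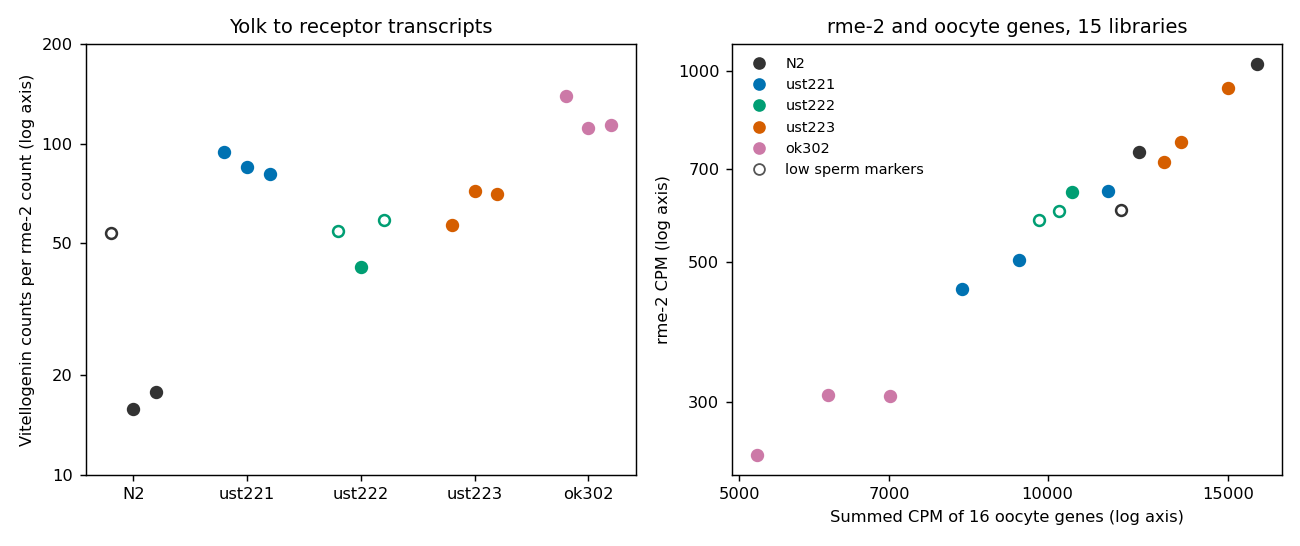
Left, summed vitellogenin counts per rme-2 count in each library, by genotype, on a log axis. Right, rme-2 CPM against the summed CPM of 16 oocyte genes on log axes; points are libraries, open where sperm markers are low. N2 replicates 2 and 3 hold 15.8 and 17.7 vitellogenin counts per rme-2 count and ok302 holds 111 to 139.5, and the 3 ok302 libraries are lowest on both axes at right.

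The ust alleles were also compared with ok302, whose 3 libraries these comparisons share. In ust221, vit-1 (2.11 ± 0.35, edgeR adjusted p = 0.00539), vit-3 (1.24 ± 0.30, 0.0169), vit-4 (1.30 ± 0.30, 0.0149) and rme-2 (0.89 ± 0.21, 0.015) were called higher, 4 of 7 members where 10.9% of all genes were. In ust223 the same 4 genes were called higher, vit-1 at 1.15 ± 0.34 (edgeR, adjusted p = 0.0342), vit-3 at 1.29 ± 0.30 (0.0111), vit-4 at 1.43 ± 0.30 (0.00699) and rme-2 at 1.50 ± 0.21 (0.00119), where 12.2% of genes were. In ust222 only rme-2 was called (1.08 ± 0.21, edgeR adjusted p = 0.00631), where 7.62% of genes were called higher. The levels of vit-1, vit-3, vit-4 and rme-2 lay above those of ok302 in all libraries of all 3 ust alleles, and those of vit-2, vit-5 and vit-6 overlapped ok302 in each. Such higher ranges were held by 3 of 6 vitellogenins in each allele, and by 24.4% of all genes in ust221, 18.5% in ust222 and 28.8% in ust223. Differences from ok302 for vit-2, vit-5 and vit-6 were between -0.52 and 0.41 on the log2 scale, none called. Summed into 1 row, vit-1 and vit-2 were at 0.53 ± 0.35 in ust221 and 0.51 ± 0.35 in ust223 against ok302. Neither was called (edgeR, adjusted p = 0.299 and 0.309).

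In the 12 libraries the calls against ok302 were vit-1, vit-3, vit-4 and rme-2 in ust221 (21.2% of genes called higher) and ust223 (22.7%), and vit-1 and rme-2 in ust222 (16.2%). Leaving out 1 library of the 15 ended some of them. The ust221 calls of vit-3, vit-4 and rme-2 were lost without ust221 replicate 1 (0.92, 0.91 and 0.66; edgeR, adjusted p = 0.137, 0.12 and 0.0621) and without ok302 replicate 2 (0.0643, 0.0576 and 0.0585). Those of vit-3 and vit-4 were also lost without ust221 replicate 2 (0.0707 and 0.0648), and that of vit-3 without ok302 replicate 3 (0.0556). In ust223 the call of vit-1 was lost without any 1 ust223 library or without ok302 replicate 2 (up to 0.109), and that of vit-3 without ok302 replicate 2 (0.0514). Other omissions added calls in ust222. Without N2 replicate 1, vit-1 (0.92, edgeR adjusted p = 0.0227), vit-3 (0.84, 0.0298) and vit-4 (1.09, 0.0136) were called. The call of vit-1 was also made without ust222 replicate 3 (1.07, 0.0312), and that of vit-4 without ust221 replicate 3 (0.83, 0.0378) or ok302 replicate 1 (1.26, 0.0353). Without N2 replicate 1, 21.9% of all genes were called higher in ust222 than in ok302. With library class as a term, vit-2 (-1.01 ± 0.38, edgeR adjusted p = 0.0427), vit-5 (-1.35 ± 0.36, 0.00711) and vit-6 (-1.03 ± 0.32, 0.0185) were called lower in ust222 than in ok302, where 24.6% of all genes were. There vit-1 and rme-2 were called higher, where 3477 of 17217 genes were. No ok302 library was sperm-poor, so the class term rests on N2 and ust222 libraries alone. In the 12 libraries, with 1 ust222 library, the differences of vit-2, vit-5 and vit-6 were -0.53, -0.94 and -0.68. The ust221 call of vit-1, the ust223 calls of vit-4 and rme-2 and the ust222 call of rme-2 held in all 15 fits that left out 1 library.

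Among the 3 ust alleles, 0 of 7 members were called in ust221 against ust222 (0.0174% of all genes were), in ust221 against ust223 (3.76%) or in ust222 against ust223 (0.482%). At an unadjusted p under 0.05 each of the 3 comparisons had 2 of 7, where 21.6, 21.4 and 11.3% of all genes passed. DESeq2 called 1, 2 and 0 of the 7, where it called 9.37, 13 and 2.56% of all genes. In the edgeR fit vit-1 in ust221 against ust222 was at a positive difference short of the threshold (1.42 ± 0.34, edgeR adjusted p = 0.0886). That difference was called without N2 replicate 1 (1.25, 0.025), ust221 replicate 3 (1.59, 0.0476) or ust222 replicate 2 (1.89, 0.00927). In ust221 against ust223, vit-1 was called without N2 replicate 1 (0.94, edgeR adjusted p = 0.0459) or ust222 replicate 2 (0.96, 0.0497), and rme-2 without N2 replicate 1 (-0.62, 0.0337). With the replicate block, 0 of 7 were called in ust221 against ust223 (edgeR, lowest adjusted p = 0.144), with 2 under an unadjusted p of 0.05. In the 12 libraries, 2 of 7 were called in ust221 against ust223 (21.3% of genes), vit-1 higher and rme-2 lower in ust221. By mean level the order for vit-1 was ust221, ust223, ust222, N2 and ok302, and no neighbouring pair in it differed past the threshold. For vit-3 and vit-4 the order was ust223, ust221, ust222, ok302 and N2, and for vit-2 and vit-6 it was ust223, ust221, ok302, ust222 and N2, again with no neighbours called. For vit-5, ok302 came second, between ust223 and ust221. The order of rme-2 was ust223, N2, ust222, ust221 and ok302, and of its neighbouring pairs only ust221 and ok302 differed past the threshold.

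Other genes of yolk production and uptake were read from lists. Of 17 regulators of vitellogenin transcription and its signalling, 1 was called lower in ust221, 0 in ust222, 1 higher in ust223, and 3 higher and 2 lower in ok302. Of all genes, 0.761% were called lower in ust221 and 1.13% higher in ust223. In ok302, 8.45% were called higher and 15.4% lower, so the 5 calls among 17 are near the share of all genes. The 12 libraries gave 2 lower in ust221 (6.65% of all genes were), 2 higher in ust223 (7.84%), and 5 higher and 4 lower in ok302. There 26.2% of all genes were called higher in ok302 and 23.6% lower, so these counts are again near the share of all genes. The list medians were 0.05, -0.19, -0.02 and 0.04 on the log2 scale, beside the medians of all genes given above. The S6 kinase gene rsks-1 fell in ust221 (-0.58 ± 0.13, edgeR adjusted p = 0.0405) and in ok302 (-0.56 ± 0.13, 0.00804). The Rictor gene rict-1, a component of TOR complex 2, rose in ust223 (0.91 ± 0.16, 0.0136). In ok302 the zinc finger gene pqm-1 (1.42 ± 0.41, 0.0245), the Smad gene sma-3 (1.05 ± 0.34, 0.0395) and mab-3 (3.07 ± 0.87, 0.0214) rose, and the FOXO gene daf-16 fell (-0.52 ± 0.14, 0.0191). MAB-3 is known to repress vitellogenin genes in males. Summed levels of the 9 male-soma markers were 11.9 to 17.6 CPM in ok302 and 2.82 to 4.98 CPM in N2. The part of male tissue in these values was not tested.

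Of 10 genes of lipoprotein assembly and secretory export, 0 were called in the 3 ust alleles. In ok302, where 15.4% of all genes were called lower, 2 of the 10 were, near that share, with a list median of -0.29. They were sar-1, the small GTPase of coat protein complex II (-0.78 ± 0.14, edgeR adjusted p = 0.00187), and the exit-site gene sec-16A.1 (-0.54 ± 0.17, 0.0384). Of the 10, the fit of 12 libraries called 2 higher in ust221, and 1 higher and 4 lower in ok302. Of all genes, that fit called 6.99% higher in ust221, and 26.2% higher and 23.6% lower in ok302. Of 18 genes of endocytosis and recycling of the yolk receptor, 0 were called in the ust alleles and 8 were called lower in ok302, with a list median of -0.62 against 0.10 for all genes, of which 15.4% were called lower. The fit of 12 libraries called 9 lower in ok302, where 23.6% of all genes were, and 1 higher in ust221, where 6.99% were. Meiotic germ line markers were also lower in ok302, with 7 of 10 called (15.4% of all genes were) and a median of -1.01. In the 12 libraries 9 of 10 were called lower (23.6% of all genes were). The part of germ line content in these values was not tested. The largest fall among the 18 was in rab-7, the late endosome GTPase (-1.34 ± 0.17, edgeR adjusted p = 0.000303). The other genes called were snx-3, the clathrin adaptor subunit aps-2, the clathrin light chain clic-1, the clathrin heavy chain chc-1, rab-5 of early endosomes, rab-35, and rme-1, which acts in receptor recycling, at -1.09 to -0.63. A further list held 6 other receptor and adaptor genes, only some of them of the LDL receptor family. Of these, egg-1, egg-2, dab-1 and ced-1 fell in ok302 (-1.44 to -0.77), where 15.4% of all genes were called lower. In the same allele lrp-1, a megalin-like gene expressed in the hypodermis, rose (1.35 ± 0.37, edgeR adjusted p = 0.0183), where 8.45% were called higher. The list median was -0.99. None of the 6 was called in the ust alleles in the 15 libraries, and 2 were called lower in ust221 in the 12 libraries (6.65% of all genes were). The genes egg-1 and egg-2, which act at the oocyte surface in fertilisation, also stand in the oocyte list.

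The genes most like each member were found among 4945 other named genes with a mean log2 CPM of at least 5, by the root-mean-square difference of centred log2 CPM over the 15 libraries. For rme-2 they were gfat-2 (0.0983), cbd-1 (0.103) and clec-87 (0.108). No gene outside the family was as close to a vitellogenin. For vit-6 they were T27D12.1 (0.216), brp-1 (0.229) and ttr-24 (0.268), for vit-2 T27D12.1, brp-1 and perm-4 (0.292 to 0.315), and for vit-5 T27D12.1, ttr-44 and lact-2 (0.317 to 0.385). The 3 nearest to vit-3 were cpr-6, perm-2 and perm-4 (0.317 to 0.379), and to vit-4 cpr-6, dod-23 and perm-2 (0.331 to 0.395). For vit-1 they were C35B1.4, alh-9 and kynu-1 (0.334 to 0.386). In the 12 libraries cpr-6 was still the nearest gene to vit-3 and vit-4, and T27D12.1 to vit-2 and vit-6. The 15 libraries share genotypes and the low-sperm class, so these distances are descriptions of this set.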

How the data were processed

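Gene-level values were deposited by the authors as unnormalised counts of all 15 libraries in 1 table, beside identifiers, coordinates, gene lengths and domain names. The submitters' processing notes name HISAT2 2.0.5. Not given in the sources used here are the annotation, the genome build, and the counting program with its handling of strand and of reads that match several genes. The table held 46904 genes with WormBase identifiers and 207 without, and library totals ran from 20969800 to 29352254. No 2 replicates agreed within counting noise. The labels tie the replicate numbers to nothing. Deviations from genotype means in same-numbered libraries correlated above 0.1 for all 3 pairs between ust221 and ust223 (0.122 to 0.281) and for no other 2 genotypes. Between N2 and ust222 the 3 values were 0.769, 0.708 and -0.615. Correlations between libraries of unlike number were not computed, so whether the numbers pair the libraries was not settled. Per the labels' protocols, RNA was selected on poly-T beads and the NEBNext Ultra kit was used.

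Genes were kept by filterByExpr on genotype (17217), scaled by TMM and fitted by quasi-likelihood with 1 coefficient for each genotype (edgeR 4.0.16, R 4.3.3); the common biological coefficient of variation was 0.477. Standard errors were taken as the size of the log2 fold change over the square root of its F statistic. The procedure was checked on simulated counts that varied less between libraries than these and held no libraries that stood apart. Its error rates at the variation of these data were therefore not checked. Levels are CPM of the TMM-scaled library size, with a prior count of 1 for log2 values; levels per kilobase use the deposited gene length. DESeq2 1.42.0 was an alternative. The members and gene lists were chosen with earlier results of these data known. Named genes were all members, list genes called against N2, and the 3 genes nearest each member. The intestinal marker opt-2 matched no identifier and ssp-9 matched 2. Sequences of these genes were not used here.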

Additional observations from a re-analysis of the deposited data

How the results depend on the processing

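Of the 7 members, the count called against N2 was 3 in ust221, 0 in ust222, 2 in ust223 and 1 in ok302. For ust221 it was 0 in a fit of only the 6 libraries compared, 0 with near-identical copies summed (vit-5 with vit-4 and vit-3, vit-2 with vit-1), and 7 in the 12 libraries and with library class as a term. With copies summed the members were these 2 sums, vit-6 and rme-2, so the count could not reach 7. For ust223 it was 5 with DESeq2, 1 with DESeq2-type size factors, 0 with only 6 libraries, 0 with copies summed, 1 with vit-3 and vit-4 summed (the pair is then 1 row), and 5 in the 12 libraries and with library class. For ok302 it was 2 with DESeq2, 3 with library totals only, 4 in the 12 libraries and 4 with library class. Calls against N2 over all genes, in either direction, numbered 308 in ust221, 233 in ust223 and 4104 in ok302, and rose in the same alternatives. With library class they were 3062, 2610 and 9321, in the 12 libraries 2503, 2048 and 9152, and with DESeq2 2064, 728 and 5436. The 12 libraries, library class and the vit-3 and vit-4 sum were chosen after seeing the data.

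Whether the replicate numbers of the labels pair the libraries was not settled. In the comparisons with N2 or ok302, at most 2 of 3 same-numbered correlations exceeded 0.1 for any pair of genotypes. All 3 did for ust221 and ust223 (0.122 to 0.281), and over all pairs the range was -0.615 to 0.769. The block left the count in ust221 against ust223 at 0. With the replicate block the counts against N2 were 1 in ust221 and 2 in ok302, and 3 in ust223.

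Against ok302 the counts were 4 in ust221, 1 in ust222 and 4 in ust223. In ust221 library totals gave 2 and copies summed gave 1, and in ust223 copies summed gave 1. In ust222, DESeq2, library totals, no filter on low counts, only 6 libraries and the 12 libraries each gave 2, and library class gave 5, of which vit-2, vit-5 and vit-6 were lower in ust222. Among ust alleles, where the count was 0, DESeq2 gave 1 in ust221 against ust222 and 2 in ust221 against ust223. Library totals and only 6 libraries gave 1 in the latter, and the 12 libraries and library class gave 2. Library class gave 3 in ust222 against ust223, vit-2, vit-5 and vit-6, all lower in ust222. The class term rests on N2 and ust222 alone, since the other genotypes held no sperm-poor library. Over all genes, library class raised the calls from 2904 to 7714 in ust222 against ok302 and from 83 to 1725 in ust222 against ust223. In ust221 against ust223 it raised them from 647 to 4179. For any genotype the count of 4 became 2 with copies summed and 7 in the 12 libraries and with library class. Each count with copies summed is out of the 2 sums, vit-6 and rme-2.

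Leaving out 1 library at a time, the counts ranged from 0 to 7 (ust221), 0 to 4 (ust222), 0 to 5 (ust223) and 1 to 4 (ok302) against N2. Against ok302 they ranged from 1 to 4 in ust221 and ust222 and 2 to 4 in ust223. They ranged from 0 to 1 in ust221 against ust222, 0 to 2 in ust221 against ust223 and 4 to 7 for any genotype. The highest counts against N2 came without N2 replicate 1. In that fit 3.71% of all genes were called higher in ust221, 4.2% in ust222, 2.28% in ust223 and 16.4% in ok302. With all 15 libraries these shares were 1.03, 0.00581, 1.13 and 8.45%. Shares for the other fits that left out 1 library are not given here. The same holds for the fits of 6 libraries, of copies summed and of the replicate block. The cause of the changes in the counts was not tested.

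Signs turned only for differences that were not called. For rme-2 in ust223 the value was -0.043 in the 12 libraries, -0.061 with library class, and -0.088 to 0.26 with 1 library left out. Library totals turned vit-1 in ok302 to 0.092, vit-2 and vit-6 in ust221 against ok302 to -0.36 and -0.39, and vit-5 in ust221 against ust222 to -0.14. With only 6 libraries, vit-3 and vit-4 in ok302 were -0.014 and -0.016. For vit-1 in ust222 against ust223 the values were 0.21 in the 12 libraries and 0.088 with library class. With 1 library left out, ok302 against N2 ranged from -0.37 to 0.087 (vit-1), -0.17 to 0.43 (vit-3) and -0.19 to 0.27 (vit-4). The ranges in ust221 against ok302 were -0.19 to 0.36 (vit-2), -0.51 to 0.028 (vit-5) and -0.17 to 0.31 (vit-6). In ust222 against ok302 vit-2 ranged from -0.63 to 0.037, and in ust221 against ust223 vit-3 ranged from -0.20 to 0.11 and vit-4 from -0.36 to 0.11. The fall of rme-2 in ok302 kept its call in each alternative tried. The log2 ratio of vitellogenin to rme-2 counts kept its sign with 1 library left out and with vit-6 alone or vit-1 to vit-5 alone. Library totals moved the median of all genes to -0.34 in ust221 and 0.30 in ok302 against N2. Depth did not limit the members, each of which had at least 6798 counts in every library.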
